A study of Mus musculus with 12 samples.

Results

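Aminoacyl-tRNA synthetases are the enzymes that join each amino acid to its tRNA before translation. They were found by gene symbol, which is the letter of an amino acid followed by ars, with 1, 2 or nothing after it, or Farsa or Farsb or Eprs, and 37 of the 17419 genes in the deposited table were members. Of these, 20 encode enzymes counted here as cytosolic and 17, with symbols ending in 2, encode mitochondrial enzymes. Gars and Kars, counted as cytosolic, are known to serve both compartments from a single gene. The study used NIH-3T3, an immortalised wild-type mouse fibroblast line, to learn how the length of 4-thiouridine (4sU) labelling biases quantification. 4sU was given at 800 µM for 15, 30, 60, 90 or 120 min or left out (no4sU), with 2 replicates, A and B, in each of the 6 groups, so that 12 libraries were made. 4sU is a uridine analogue built into new RNA, and iodoacetamide treatment of the RNA makes it read as C. The fraction of a gene's RNA that was made during labelling, estimated from these conversions, is its new-to-total ratio (NTR).

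Cytosolic synthetases fall into class I and class II by the fold of their catalytic domain. Several of them, together with the scaffold proteins Aimp1, Aimp2 and Eef1e1, form the multisynthetase complex. Mitochondrial synthetases are encoded in the nucleus, made in the cytosol and imported, and they charge the tRNAs used to translate the respiratory chain subunits of the mitochondrial genome. Transcription of many cytosolic synthetase genes is raised by Atf4, the transcription factor of the amino acid response.

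Libraries held 9917026 to 13739380 counted reads, of which 0.522% to 0.536% came from the 37 members. All 7 fibroblast markers were present, the lowest value in any library being 78.3 CPM (counts relative to the TMM-scaled library size) for Col3a1. The epithelial, leukocyte and endothelial markers Cdh1, Krt8, Ptprc and Pecam1 reached at most 0.388 CPM, and Epcam and Krt18 were not analysed here. The difference between replicates A and B of log2 CPM had an SD over the 9065 genes with a mean count of 100 or more of 0.206 in no4sU and of 0.112 to 0.122 in the labelled groups (0.140, and 0.0595 to 0.103, over the members among them). The no4sU libraries thus stood apart from each other, and values without either of them are given where they matter. The labels do not say whether replicates were separate cultures, so p-values measure the spread between these libraries, which may be technical. RNA came from whole cultures, in which fewer expressing cells and less RNA per cell cannot be told apart.

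RefSeq promoter windows (GRCm38.p6) of 250 bases before to 50 bases after the start site were matched for 27 of the 37 members, 13 cytosolic and 14 mitochondrial. The motif TGATGNAA, the core of the element bound by Atf4 with its partners, was searched on both strands. It was present in 5 of the 13 cytosolic genes (Aars, Gars, Iars, Tars and Yars) and in 0 of the 14 mitochondrial genes, against 3.97% of all 32851 windows. With only 14 mitochondrial windows, 0 matches cannot be told apart from the share of 3.97%. The stretches with the match in capitals, 5′ to 3′ along each gene, are shown for the 5 cytosolic genes with a match.
Aars: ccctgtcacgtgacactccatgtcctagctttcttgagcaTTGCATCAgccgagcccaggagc
Gars: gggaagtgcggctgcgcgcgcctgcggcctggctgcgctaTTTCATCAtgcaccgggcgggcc
Iars: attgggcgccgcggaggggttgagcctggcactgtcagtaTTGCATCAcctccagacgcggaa
Tars: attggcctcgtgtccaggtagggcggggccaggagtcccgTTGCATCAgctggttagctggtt
Yars: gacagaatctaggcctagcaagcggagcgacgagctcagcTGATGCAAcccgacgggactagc
These lie at chr8:111033690-111033752, chr6:55037931-55037993, chr13:49682097-49682159 and chr4:129189866-129189928 on the plus strand for Aars, Gars, Iars and Yars, and at chr15:11399651-11399713 on the minus strand for Tars. The stricter form TTGCATCA (TGATGCAA on the other strand), contained in TGATGNAA, was found in 4 of these 5 genes, all but Gars, against 0.895% of all windows. Aars holds a second match, TTTCATCA, at position 10 relative to its start site, which is not shown.

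Other motifs were found in both compartments or in neither. CACGTG, the E-box read by Myc and related factors, was in 4 of 13 cytosolic genes (Aars, Farsb, Iars and Tars) and in 1 of 14 mitochondrial genes (Ears2), against 7.15% of all windows. CCGGAAG, the core bound by Ets factors, was in 5 cytosolic genes (Farsa, Gars, Kars, Mars1 and Sars) and 4 mitochondrial genes (Cars2, Mars2, Rars2 and Sars2), against 8.86%. The palindrome of nuclear respiratory factor 1 was in 0 members, against 0.971%. A match is a description of these letters and no evidence of binding.

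Cytosolic synthetase mRNAs were more abundant than mitochondrial ones without exception when levels were divided by gene length. Mean levels over the 12 libraries ran from 32.3 (Farsa, the alpha subunit of the phenylalanine enzyme) to 187.9 CPM per kilobase (Rars, the arginine enzyme) among the 20 cytosolic genes, with a median of 58.8. Among the 17 mitochondrial genes they ran from 1.02 (Ears2, the glutamate enzyme) to 20.4 CPM per kilobase (Iars2, the isoleucine enzyme), with a median of 5.43. The lowest cytosolic value in any library was 29.3 CPM per kilobase and the highest mitochondrial value was 21.9, so the compartments did not overlap in any library.

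For 14 amino acids a single gene of each compartment could be compared. The cytosolic level per length was the higher in all 12 libraries in 14 of the 14 pairs. The median ratio over libraries ran from 2.74 for Iars over Iars2 to 71.4 for Nars over Nars2, the asparagine enzymes, and the median pair stood at 10.8. Counts follow these levels. The mean count per library was between 1163 and 6351 for cytosolic genes and between 57.4 and 1276 for mitochondrial genes, so that the latter carry more counting error. The coefficient of variation of the level over the 12 libraries had a median of 3.74% for cytosolic and 7.63% for mitochondrial genes.

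**Figure D1:**
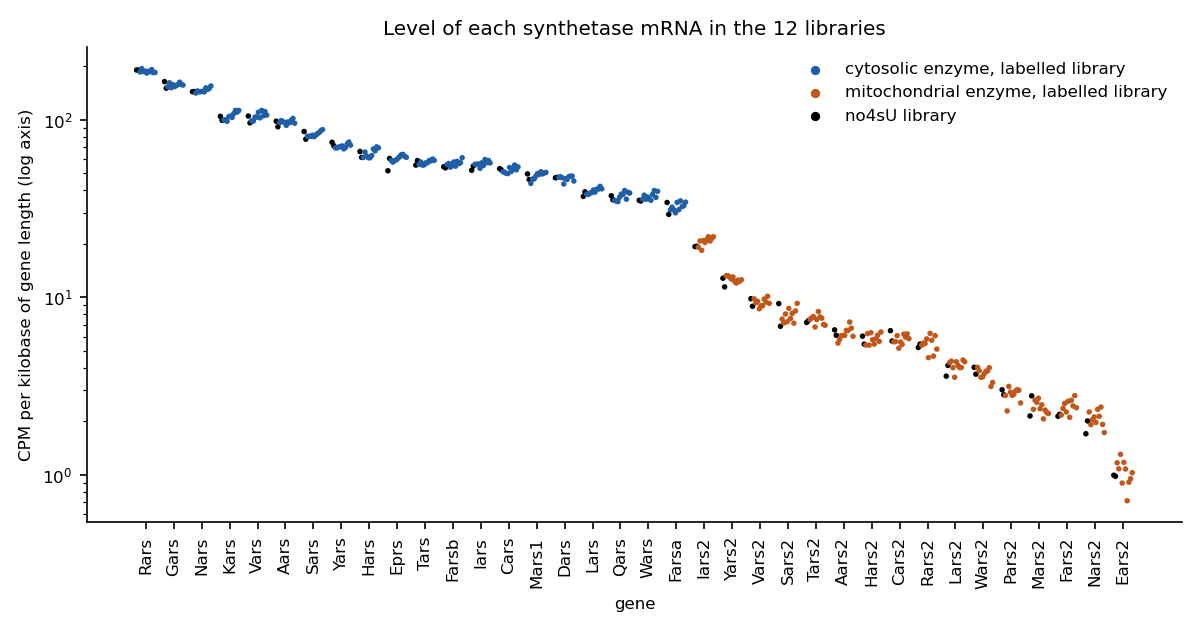
Level of the synthetase mRNAs in CPM per kilobase of gene length (log axis), with 1 point per library, cytosolic genes in blue, mitochondrial genes in orange and no4sU libraries in black. All cytosolic points lie at 29.3 or above and all mitochondrial points at 21.9 or below.

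New RNA made up a small share of cytosolic synthetase mRNA. After 120 min their median NTR was 0.196 ± 0.00608 (SD over the medians of 2 libraries), compared with 0.354 ± 0.00523 over the 9065 genes with a mean count of 100 or more and 0.267 ± 0.00354 over the 2700 genes with a mean count of 1000 or more, a minimum that all 20 cytosolic genes reached. At 60 min the cytosolic median was 0.0838 ± 0.00318 and at 90 min it was 0.143 ± 0.00354. All 20 cytosolic genes were below the all-gene median in both libraries at 90 and 120 min. At 120 min the authors' whole 90% interval of the NTR was below it for all 20. The median of the 2700 more abundant genes was lower, at 0.269 and 0.264 in A and B at 120 min. Aars (0.313 and 0.327) and Cars (0.282 and 0.275) were above that median in both libraries, and Farsa and Yars in replicate B only.

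Mitochondrial synthetase mRNAs ranged far more widely. Over the 13 genes with a mean count of 100 or more the median NTR at 120 min was 0.265 ± 0.0420 (SD, n = 2), and over all 17 it was 0.332 ± 0.0526. Except for Iars2, these 13 had mean counts of 100 to 1000. Over all 6365 genes in that range the median was 0.401 ± 0.00354. The whole interval was above the all-gene median in both libraries for 4 of the 17 genes and below it for 6. The 90% interval at 120 min had a median width of 0.124 for mitochondrial genes and 0.0326 for cytosolic genes, and the part of this in the wider range was not tested. The difference between the medians of the compartments, 0.0688 ± 0.0480, was little larger than its spread between the 2 libraries. It was 0.136 with all 17 mitochondrial genes and turned to -0.0519 with only the genes at a mean count of 1000 or more, of which Iars2 is the only mitochondrial member. All-gene medians also differed by count, at 0.401 for 100 to 1000 and 0.267 for 1000 or more. The part of abundance in the difference between compartments was not tested. No p-value is given, because genes are not replicates of a condition.

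**Figure D2:**
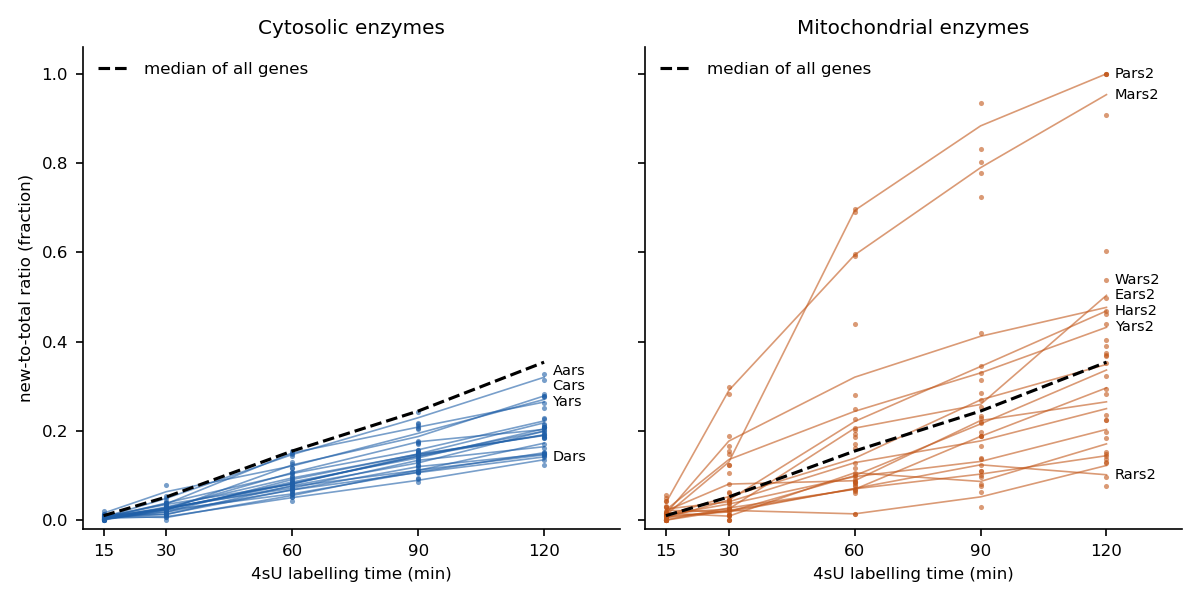
NTR (fraction) against 4sU labelling time in min for cytosolic genes (left) and mitochondrial genes (right), with points for single libraries, lines through the means of 2 libraries and a dashed line for the median of all genes with a mean count of 100 or more. Cytosolic lines stay below the dashed line at 90 and 120 min, whereas Mars2 and Pars2 rise above 0.9 at 120 min.

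Mars2 and Pars2 stood apart from all other members. The Mars2 enzyme charges the mitochondrial methionine tRNA, which also starts translation there. Its NTR in replicates A and B was 0.0564 and 0.0214 (15 min), 0.298 and 0.283 (30 min), 0.591 and 0.597 (60 min), 0.802 and 0.778 (90 min) and 1.00 and 0.907 (120 min). Pars2 encodes the mitochondrial proline enzyme. Its NTR was 0.0128 and 0.0103 (15 min), 0.155 and 0.105 (30 min), 0.697 and 0.691 (60 min), 0.935 and 0.832 (90 min) and 1.00 in both libraries at 120 min. Nearly all mRNA of both genes was thus new after 120 min. An estimate of 1.00 is the upper edge of the scale, and the 90% intervals at 120 min were 0.924 to 0.997 and 0.835 to 0.956 for Mars2 and 0.880 to 0.996 and 0.863 to 0.996 for Pars2. Pars2 had a mean count of 98.7, just below the minimum of 100, and was left out of the medians over 13 genes.

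From the NTR an apparent half-life follows if RNA levels are constant, as the labelling time multiplied by ln 2 and divided by the negative natural log of 1 minus the NTR. At 60 min it was 46.1 min ± 0.517 (SD, n = 2) for Mars2 and 35.1 min ± 0.473 for Pars2. For comparison it was 592 min ± 30.7 for the cytosolic aspartate enzyme gene Dars. The apparent half-life of Mars2 and Pars2 differed with labelling time. For Mars2 it was 60.6 min ± 2.57 at 30 min and 40.02 min ± 2.04 at 90 min. For Pars2 it was 155 min ± 45.3 and 28.9 min ± 8.62. The SD does not include the width of the authors' 90% intervals. At 60 min these NTR intervals were 0.512 to 0.671 (A) and 0.523 to 0.672 (B) for Mars2. For Pars2 they were 0.534 to 0.842 and 0.541 to 0.827. The older part of the Mars2 mRNA, which is CPM times 1 minus the NTR, went from 26.95 ± 2.92 CPM at 15 min to 11.1 ± 0.288 at 60 min and 5.21 ± 0.827 at 90 min, while the total went only from 28.0 ± 2.32 to 27.3 ± 0.984 and 24.7 ± 1.97 CPM.

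The gene structures of these members differ from the rest as well. In GENCODE M21 (GRCm38), Mars2 (ENSMUSG00000046994, plus strand of chromosome 1, 55237177 to 55248470) is a single exon, and the coding transcripts of Pars2 (ENSMUSG00000043572, plus strand of chromosome 4, 106651069 to 106655282) have at most 2 exons. The next members by this count were Yars2 with 5 exons and Wars2 with 6, and their NTR at 120 min was also above the all-gene median in both libraries. Fars2, with 8 exons, was low at 0.148 and 0.0966. Hars2, with 13 exons, was above the median in both libraries. Among all genes with a mean count of 100 or more, the median NTR at 120 min was 0.614 for the 128 genes with 1 exon and 0.682 for the 251 genes with 2, against 0.354 for 3 to 5 exons, 0.338 for 6 to 10 and 0.347 for more than 10. Over the 13 mitochondrial genes with a mean count of 100 or more, Spearman's rho between exon number and NTR was -0.626, and over the 20 cytosolic genes it was -0.165. Over 8957 genes with a mean count of 100 or more it was only -0.0633. These describe genes measured in the same libraries and carry no p-value.

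Wars2 and Hars2 came next among the mitochondrial genes with a mean count of 100 or more. For Wars2, the tryptophan enzyme gene, the NTR in A and B was 0.0135 and 0.0171 (15 min), 0.0109 and 0.0392 (30 min), 0.226 and 0.187 (60 min), 0.329 and 0.189 (90 min) and 0.469 and 0.538 (120 min). For Hars2, the histidine enzyme gene, it was 0.0109 and 0 (15 min), 0.0623 and 0.0281 (30 min), 0.194 and 0.249 (60 min), 0.419 and 0.269 (90 min) and 0.440 and 0.497 (120 min). Replicates of both genes were furthest apart at 90 min. Ears2, with a mean count of 57.4, had 0.351 and 0.602 at 120 min, too far apart to place it.

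At the other end of the mitochondrial genes with a mean count of 100 or more were Rars2 and Iars2, whose enzymes charge arginine and isoleucine. Rars2 had an NTR of 0 and 0.0165 (15 min), 0.0249 and 0.0123 (30 min), 0.0761 and 0.0662 (60 min), 0.0817 and 0.166 (90 min) and 0.128 and 0.0758 (120 min). Iars2, the most abundant mitochondrial member, had 0.0097 and 0.0006 (15 min), 0.0106 and 0.0328 (30 min), 0.0796 and 0.0608 (60 min), 0.111 and 0.0958 (90 min) and 0.137 and 0.152 (120 min). At 120 min both were below their cytosolic counterparts, and their 90% intervals did not overlap those of Rars and Iars in either library. In 5 of the 14 pairs (Hars2, Mars2, Vars2, Wars2 and Yars2) the mitochondrial interval was above the cytosolic one in both libraries, and in the remaining 7 the intervals overlapped in at least 1 library.

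**Figure D3:**
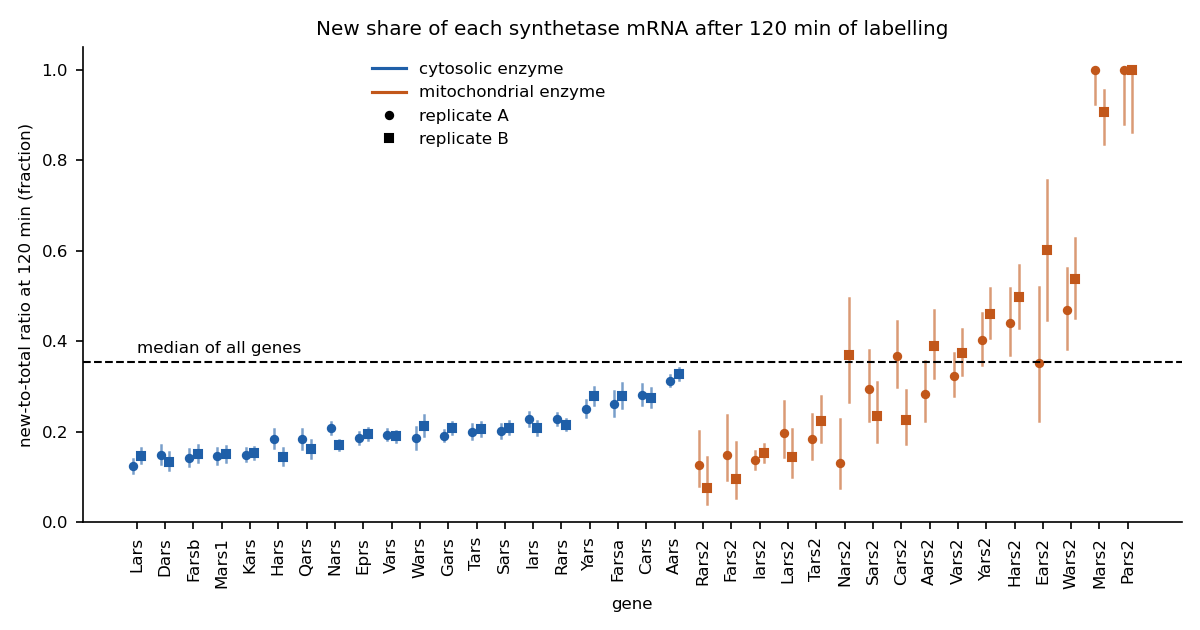
NTR (fraction) of the members at 120 min, with circles for replicate A, squares for replicate B, bars for the authors' 90% interval, and a dashed line at the median of all genes with a mean count of 100 or more. The 20 cytosolic genes (blue) lie below the line, and the mitochondrial genes (orange) spread from Rars2 to Pars2.

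Among the cytosolic genes, Aars, Cars and Farsa had the highest NTR at 120 min. Aars, the alanine enzyme gene, was at 0.0091 and 0.0042 (15 min), 0.055 and 0.0429 (30 min), 0.145 and 0.149 (60 min), 0.241 and 0.218 (90 min) and 0.313 and 0.327 (120 min). Cars, the cysteine enzyme gene, was at 0.0068 and 0.0097, 0.0281 and 0.0175, 0.130 and 0.118, 0.205 and 0.170, and 0.282 and 0.275 at the same durations. The value of Aars is uncertain. Its annotated exons share 1326 bases on the same strand with those of Exosc6, an exosome subunit gene whose NTR at 120 min was 0.728 in both libraries.

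Farsa and Farsb encode the subunits of a single enzyme, and their mRNAs differed in NTR. Farsa was at 0.0194 and 0.0121 (15 min), 0.0487 and 0.0791 (30 min), 0.127 and 0.116 (60 min), 0.215 and 0.175 (90 min) and 0.262 and 0.279 (120 min). Farsb was at 0.0147 and 0.0019, 0.012 and 0, 0.0585 and 0.0523, 0.129 and 0.095, and 0.142 and 0.151. From 30 min on, Farsa was the higher in every library, and at 120 min the apparent half-lives were 264 min ± 14.2 (SD, n = 2) for Farsa and 526 min ± 24.5 for Farsb. Per length Farsb was the more abundant, with a mean of 56.4 against 32.3 CPM per kilobase.

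The lowest cytosolic NTR values at 120 min were those of Lars, the leucine enzyme gene, and Dars, followed by Farsb. Lars was at 0.0055 and 0.0026 (15 min), 0.0081 and 0.0077 (30 min), 0.042 and 0.0591 (60 min), 0.0932 and 0.0855 (90 min) and 0.124 and 0.147 (120 min). Dars was at 0.0039 and 0.0049, 0.011 and 0.0253, 0.0703 and 0.0655, 0.109 and 0.105, and 0.149 and 0.134. Both belong to the multisynthetase complex.

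Gars and Kars, which serve both compartments, were within the cytosolic range. Gars, the glycine enzyme gene, was at 0.0017 and 0.0006 (15 min), 0.0233 and 0.0277 (30 min), 0.0758 and 0.0894 (60 min), 0.149 and 0.138 (90 min) and 0.191 and 0.208 (120 min). Kars, the lysine enzyme gene, was at 0.0028 and 0.0015, 0.0281 and 0.017, 0.0515 and 0.0661, 0.109 and 0.107, and 0.149 and 0.153. The median NTR at 120 min of the 8 complex members was 0.162 ± 0.00636 (SD over the medians of 2 libraries) and that of the 12 other cytosolic genes was 0.204 ± 0.00502. Class I and class II, leaving out Eprs, which holds an enzyme of each, were at 0.201 ± 0.0111 (9 genes) and 0.192 ± 0.00530 (10 genes), closer together than the spread of the former between its libraries.

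The 5 cytosolic genes with TGATGNAA in the printed promoter stretches had NTR values at 120 min between 0.199 and 0.320, with a median of 0.218. The 8 other cytosolic genes with a window were between 0.142 and 0.270, with a median of 0.162. Their levels overlapped, with medians of 71.3 and 52.4 CPM per kilobase. These groups of genes were not tested against each other.

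Counts of few synthetase mRNAs changed with labelling. Of the 37 members, all of which passed the filter on low counts, 1 passed edgeR's quasi-likelihood test at 120 against 15 min with a Benjamini-Hochberg adjusted p below 0.05, compared with 19.3% of all 11564 genes tested (7.93% higher and 11.3% lower). This was Kars (ENSMUSG00000031948, minus strand of chromosome 8, 111993443 to 112011323). Its level was 241.4 and 241.9 CPM in A and B at 15 min, 237.1 and 251.5 (30 min), 253.9 and 249.4 (60 min), 261.8 and 273.4 (90 min) and 267.1 and 273.1 (120 min), with 252.8 and 240.2 in no4sU. The 120 min libraries lay above the 15 min libraries and above no4sU without overlap. The log2 fold change was 0.16 ± 0.0530 (SE, edgeR adjusted p = 0.0388), a 1.12-fold change. DESeq2 gave 0 members, with 0.16 and an adjusted p of 0.0595 for Kars.

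Most cytosolic genes had small differences above 0 that did not pass. At 120 against 15 min 18 of 20 had a log2 fold change above 0, with a median of 0.08 and a range from -0.04 (Rars) to 0.16, against a median of 0.01 and 50.9% above 0 over all genes tested. The mitochondrial genes had a median of 0.03, with 11 of 17 above 0 and a range from -0.29 (Wars2) to 0.26 (Sars2). With library size as the only scaling the medians were 0.02, -0.03 and, over all genes, -0.05, with 14 of 20 and 7 of 17 above 0. All-gene calls then split into 426 higher and 1867 lower, compared with 917 and 1311 under TMM scaling, and Wars2 was the only member called (-0.35, edgeR adjusted p = 0.0284) in place of Kars.

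The number of calls depended on which libraries were fitted. The no4sU libraries entered the shared estimate of the spread although they are not part of this contrast. Their part in the calls was not tested. In a fit of the 10 labelled libraries alone 9 members passed by edgeR, when 3700 genes passed in all. Hars, Kars, Lars, Mars1, Nars, Qars, Sars and Vars were higher, with log2 fold changes from 0.09 to 0.16, and Wars2 was lower at -0.29 (adjusted p = 0.0383). Wars2 (ENSMUSG00000004233, plus strand of chromosome 3, 99141068 to 99239186) was at 17.8 and 17.0 CPM at 15 min and 13.9 and 14.6 at 120 min, and the lowest of the 10 libraries outside the 120 min group was at 15.6. The log2 fold change of Kars was 0.16 without no4sU replicate A or B. With any 1 of the 10 labelled libraries left out it was 0.14 to 0.18, and Kars did not pass by edgeR. A group left with 1 library is assumed to vary like the others.

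The members were set beside all genes of similar NTR. With all genes of a mean count of 100 or more ranked by NTR at 120 min into 10 equal groups, 7 cytosolic genes were in the second group, whose median log2 fold change at 120 against 15 min was 0.15, 9 were in the third (0.11), 3 in the fourth (0.06) and 1, Aars, in the fifth (0.02). Fibroblast markers, most of which had a low NTR, were in the same fit, and 3 of 7 (Vim, Fn1 and Thy1) were higher at 120 than at 15 min by edgeR, compared with 7.93% of all genes. The 7 markers summed to 13860 and 13880 CPM in no4sU, 14280 and 14360 at 15 min and 16490 and 17220 at 120 min. Their part in the members' values was not tested. Mars2 was in the last group, with a log2 fold change of -0.16 ± 0.112 (SE, edgeR adjusted p = 0.341) against the group's median of -0.27, and Pars2 was at 0.11 ± 0.151. Across the 33 members with a mean count of 100 or more, Spearman's rho between NTR and fold change was -0.370, and it was -0.763 across all 9065 genes. Both measures of a gene come from the same 120 min libraries.

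**Figure D4:**
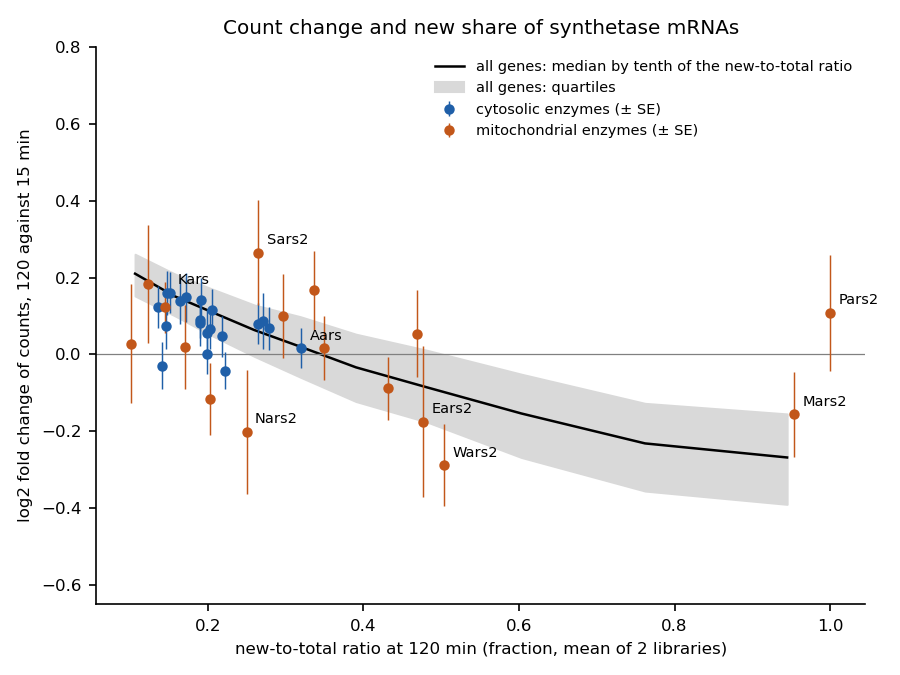
Log2 fold change of counts at 120 against 15 min against the NTR at 120 min (fraction, mean of 2 libraries) for the members, with SE bars, cytosolic genes in blue and mitochondrial genes in orange. The black line and grey band give the median and quartiles of all genes in 10 groups by NTR, and Kars lies close to the line while Pars2 lies above it.

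Against no4sU no member passed edgeR's test at any duration. At 120 min 0 of 37 passed, compared with 14.2% of all genes tested (5.43% higher and 8.78% lower). An unadjusted edgeR p under 0.05 was found for 8 members and for 3524 of all 11564 genes. At 90 min 0 passed (1.39% of all genes, 0.45% higher and 0.943% lower), with 6 members and 1869 genes under the unadjusted threshold. At 60 min 0 passed (0.0173%, with 0.00865% in each direction), with 1 member and 895 genes under it. At 30 min 0 passed (0%), with 1 member and 670 genes under it. At 15 min 0 passed (0%), with 0 members and 618 genes under it. DESeq2 gave 0 members at each duration. The median log2 fold change at 120 min was 0.09 for cytosolic and 0.01 for mitochondrial genes. This comparison shares the 120 min libraries with the one above.

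Fold changes against no4sU depended on the no4sU library used. Without no4sU replicate A the median log2 fold change at 120 min was 0.096 for cytosolic and 0.0496 for mitochondrial genes. Without no4sU replicate B the medians were 0.0523 and -0.0178. Which members passed by edgeR differed between these fits. Mars2 was at -0.32 without replicate A, compared with -0.16 with both libraries. Eprs, the large fused glutamate and proline enzyme gene, was at 0.26 without replicate B, compared with 0.14 with both. At 15 min Eprs was at 0.18 without replicate B, compared with 0.06 with both.

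Whether the NTR of a member gave the same apparent half-life at 120 as at 60 min was tested with limma on the 8607 genes with a mean count of 100 or more whose NTR was between 0.01 and 0.99 in all 6 libraries from 60 to 120 min. The apparent half-life was shorter at 120 min for 3 of the 32 members tested, compared with 27.7% of all genes that passed in either direction (0.616% longer and 27.1% shorter). These were the mitochondrial genes Aars2, Cars2 and Sars2, while Ears2, Fars2, Mars2, Nars2 and Pars2 were not tested. Aars2 went from 396 min ± 7.11 (SD, n = 2) at 60 min to 259 min ± 34.2 at 90 min and 209 min ± 57.2 at 120 min, a log2 change of -0.95 ± 0.222 (SE, limma adjusted p = 0.0283). Cars2 went from 580.5 min ± 10.5 to 300.1 min ± 0.251 and 254 min ± 102, at -1.25 ± 0.273 (adjusted p = 0.0246), and Sars2 from 450 min ± 30.2 to 247 min ± 9.80 and 274 min ± 50.7, at -0.73 ± 0.177 (adjusted p = 0.0309).

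No cytosolic member passed this test by limma. Their median log2 change was -0.30, with 19 of 20 below 0, compared with a median of -0.41 over all genes tested. Past the threshold were 0 of 20. An unadjusted limma p under 0.05 was found for 4 of the 20 and for 3777 of all 8607 genes tested. The Sars2 call was lost under every alternative run, with limma adjusted p-values from 0.0502 with the replicate block to 0.170. Without 120 min replicate A or B the log2 changes were -1.23 and -0.67 for Aars2, -0.83 and -1.68 for Cars2, and -0.54 and -0.92 for Sars2. Without 60 min replicate A or B they were -0.97 and -0.93, -1.27 and -1.24, and -0.66 and -0.80. None of the 3 calls was kept in these fits, which leave 1 library in a group. The reason for this loss was not tested. Cars2 shares 422 exon bases on the opposite strand with Naxd, and the use of strand in counting was not given in the sources used here.

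Partners of the synthetases showed other patterns. The scaffold genes of the complex had NTR values at 120 min of 0.203 and 0.182 (Aimp1), 0.353 and 0.335 (Aimp2) and 0.476 and 0.479 (Eef1e1), all above the median of the 8 enzyme genes of the complex, and 0 of 3 passed at 120 against 15 min or against no4sU. Of 10 other genes that act on charged or charging tRNA, 2 were lower by edgeR at 120 against 15 min, compared with 11.3% of all genes, and 0 were higher. Sepsecs, which makes selenocysteine on its tRNA, was at -0.63 ± 0.140 (SE, adjusted p = 0.00427) with an NTR of 0.759 and 0.751. Qrsl1, a subunit of the amidotransferase that makes mitochondrial glutaminyl-tRNA in place of a separate synthetase, was at -0.38 ± 0.127 (adjusted p = 0.0391) with an NTR of 0.665 and 0.5002. Against no4sU Mtfmt, the formyltransferase of mitochondrial initiator methionyl-tRNA, was lower as well (-0.54, adjusted p = 0.0416), which made 3 of 10 compared with 8.78%.

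Amino acid response genes, which share Atf4 control with many synthetases, were compared in the same fit. Of 11 tested (Ddit3, with 2 entries in the table, was left out), 4 were lower by edgeR at 120 against 15 min and 0 higher, compared with 11.3% and 7.93% of all genes. These were Atf4 itself (-0.22 ± 0.0522 SE, adjusted p = 0.00610), the pseudokinase gene Trib3 (-0.61 ± 0.143), the glutathione-degrading enzyme gene Chac1 (-0.48 ± 0.0889) and the amino acid transporter chain gene Slc3a2 (-0.41 ± 0.0643). The NTR at 120 min of these 4 genes was between 0.790 and 1.00. Among all genes, the ninth and last groups by NTR, which cover this range, had median log2 fold changes of -0.23 and -0.27. Asns, which makes asparagine, and Psat1, which makes a serine precursor, had NTR values of 0.162 and 0.183 and of 0.144 and 0.145, within the range of the cytosolic synthetases, and log2 fold changes of 0.03 and 0.08 that did not pass. Against no4sU the same 4 genes were lower and Atf5 was higher (0.25, adjusted p = 0.0317), compared with 8.78% and 5.43% of all genes.

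Annotated exons of 14 members share bases with another gene, and for 9 of them (Aars, Cars2, Ears2, Fars2, Hars, Hars2, Iars2, Mars1 and Yars) that gene had a mean count of 100 or more. Hars and Hars2 overlap each other by 195 bases on opposite strands. Iars2 shares 2034 bases with Rab3gap2, and Fars2 shares 501 with Nrn1, whose mean count of 1654 far exceeded the 91.1 of Fars2. Counts and NTR values of these members are uncertain to that extent, and the part of the overlaps in the results was not tested. Mars2 and Pars2 share no exon bases with another gene in this annotation.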

How the data were processed

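The authors deposited a single table with estimated counts per gene and library, not scaled, of which 20.4% were not whole (tolerance 1e-06). They were rounded for the count tests. The NTR was deposited per labelled library as a fraction, given as a posterior maximum, used here, a posterior mean and a 90% interval. Deposited columns named alpha and beta, a score without fixed range, were not used. Per the submitters' processing notes, cutadapt, Bowtie2 2.3.0 and STAR 2.7.10b were used. The counting tool, build and annotation were not given in the sources used here.

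Genes kept by filterByExpr (11564) were scaled by TMM and fitted with edgeR 4.0.16 (quasi-likelihood, R 4.3.3) over all 12 libraries without covariates (common biological coefficient of variation 4.44%). The SE was the absolute log2 fold change divided by the square root of F. DESeq2 1.42.0 was the other tool, and limma 3.58.1 tested log2 apparent half-lives. On simulated data for 120 against 15 min (11489 genes), edgeR recovered 73.4% of 109 changes of 0.5 and 95.6% of 91 changes of 1 (log2). limma recovered 100% of 200 changes of 1 for 120 against 60 min (8000 genes). False calls were 8 for edgeR and 7 for limma. Every simulated gene was given the same spread. Members' changes at 120 against 15 min, from -0.29 to 0.26, were smaller than those simulated. Recovery of changes of that size was thus not tested. CPM used TMM-scaled library sizes, and gene lengths were those deposited. With 2 against 2 libraries no exact permutation test was run on single values. Intervals cover the authors' model only. Locations and exons come from GENCODE M21.

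The values of 1 mitochondrial member are not reported here and not plotted, although it enters the counts and medians. Every other member could be named. Values in every library are given for members past the threshold in counts and, by compartment, for the 3 highest and 3 lowest NTR values at 120 min among genes averaging 100 counts or more, with Farsa, Farsb, Gars and Kars. Of the other lists, genes past the threshold are named. Members, lists and motifs were chosen with earlier results of these data known. Pars2, Ears2, Eprs, Asns and Psat1 were described after their values were seen.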

Additional observations from a re-analysis of the deposited data

How the results depend on the processing

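Of the 37 members, the number called at 120 against 15 min was 1 by edgeR, when 2228 genes passed in all. With no filter on low counts it was 0 (2399 genes in all), and with a mean count of at least 100 it was 2 (2270). It was 8 in a fit of only the 4 libraries compared (3818), 9 in a fit of the labelled libraries (3700) and 0 by DESeq2 (1439). Leaving out a library gave 0 to 8. At 120 min against no4sU, library size as the only scaling gave 1 member (Wars2, lower), and leaving out a library gave 0 to 7. That range was 0 to 4 at 90 min and 0 to 1 at each of 60, 30 and 15 min. For the apparent half-life (3 members) no low count filter gave 0, and leaving out a library gave 0 to 2. Against no4sU, the fits with the most members called were those left with 1 no4sU library. At each duration more of all genes also passed in that fit than with all libraries, so the rise was not particular to the members. The cause was not tested for any of these differences between fits. The mitochondrial median NTR at 120 min (0.265) was 0.332 without a count minimum and 0.144 with a minimum of 1000, which leaves only Iars2. The difference from the cytosolic median (0.0688) was then 0.136 and -0.0519. With 1 library at 120 min left out, the cytosolic median was 0.192 to 0.201, the mitochondrial median 0.235 to 0.295 and their difference 0.0348 to 0.103. The posterior mean, and leaving out Gars and Kars, moved these medians by less than the replicate SD.

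Replicate letters did not pair the libraries (correlations of deviations between groups from -0.0364 to 0.0744). With the replicate block 1 member was called at 120 against 15 min, 0 against no4sU at each duration and 2 for the apparent half-life. Low counts limit the mitochondrial NTR values, and Ears2, Nars2 and Wars2 had the widest intervals at 120 min.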
